A study of Mus musculus with 6 samples.

Results

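The genes described here make cholesterol and fatty acids and are classic targets of the sterol regulatory element binding proteins (SREBPs), together with the genes Srebf1 and Srebf2 that encode these factors. They were chosen by gene symbol from textbook pathway membership, and each was measured by the probe set that carries its symbol alone, or by the brightest such probe set where there were several. Of 32 genes listed, 31 had such a probe set among 19938 genes on the array: the 2 factors, 19 genes of the sterol arm and 10 genes of the fatty acid arm. The thiolase Acat2, which belongs to the sterol arm, was not analysed here.

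RNA was measured on 6 Affymetrix arrays (Mouse Gene 1.0) from C57B/6 mouse marrow cells of tibia and femur cultured with recombinant GM-CSF, a cytokine that drives myeloid growth, at 20 ng/ml up to day 6. Each of 2 populations without further stimulation, dendritic and macrophage by their labels, has 3 arrays. The sources used here do not give how the populations were separated, or whether a replicate is another mouse or culture, so p-values reflect the spread of these samples alone, and that spread may be technical. Values are log2 RMA values (background-corrected, quantile-normalized and summarized per probe set), differences are the dendritic mean minus the macrophage mean in log2 units ± SE with n = 3 arrays each, and a gene was called at a limma adjusted p under 0.05 (Benjamini-Hochberg over all 19938 genes). In such bulk RNA, fewer cells that express a gene and less RNA per cell cannot be told apart.

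The population names held up against their markers. All 7 measured dendritic markers were called higher in the dendritic population, Flt3 for example at 8.89, 8.89 and 9.09 in dendritic against 4.06, 4.38 and 4.33 in macrophage arrays. All 7 measured macrophage markers were called lower, Csf1r at 4.93, 4.78 and 4.86 in dendritic against 10.85, 10.40 and 10.59 in macrophage arrays. Across genes, macrophage replicates 2 and 3 correlated at r = 0.993, and the range was 0.98 to 0.99 within the dendritic and 0.983 to 0.993 within the macrophage population, so by this measure the macrophage arrays were no more scattered than the dendritic ones. Macrophage replicate 1 was low on the genes described here, and results that rest on it are given with and without it.

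SREBPs are made as membrane proteins of the endoplasmic reticulum, where Scap escorts them and Insig proteins hold them back while sterols are plentiful. When sterols run low they move to the Golgi, are cut by the proteases Mbtps1 and Mbtps2 and enter the nucleus, where they switch on the genes of sterol and fatty acid synthesis. The Srebf2 product acts mainly on sterol genes, and the Srebf1 products act mainly on fatty acid genes. Some but not all Srebf1 isoforms are induced through the oxysterol receptor LXR. In macrophages, which take up much cholesterol from what they engulf, this pathway is known to be set against LXR-driven export.

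More genes of both arms were called lower than higher in the dendritic population. In the sterol arm 9 of 19 genes were called lower and 2 higher, with a median difference of -0.83. In the fatty acid arm 4 of 10 were called lower and 1 higher, with a median of -0.64. Among all genes 11.6% were called lower and 9.98% higher (21.6% in either direction), with a median of 0.03. The dendritic arrays lay wholly under the macrophage arrays for 13 of 31 members and wholly above for 3, against 16.7% and 17.3% of all genes (34% in either direction).

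The higher calls of the members (3 of 31) were thus near the share over all genes, while the lower calls (13 of 31, or 41.9%) were above it. These counts describe the lists and were not tested as sets, since the genes were chosen with earlier results of these data known. Without macrophage replicate 1 the counts were 13 lower and 2 higher in the sterol arm (median -1.25) and 7 lower and 1 higher in the fatty acid arm (median -0.90), where all genes gave 11% lower and 9.15% higher. A fit that blocks on replicate number called 15 members lower and 3 higher, against 13.9% and 12.2% of all genes. Leaving out other arrays lowered the counts: 5 sterol genes were called lower without dendritic replicate 2 or without macrophage replicate 3, 1 was called higher without dendritic replicate 3, and 2 fatty acid genes were called lower without macrophage replicate 2.

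**Figure D1:**
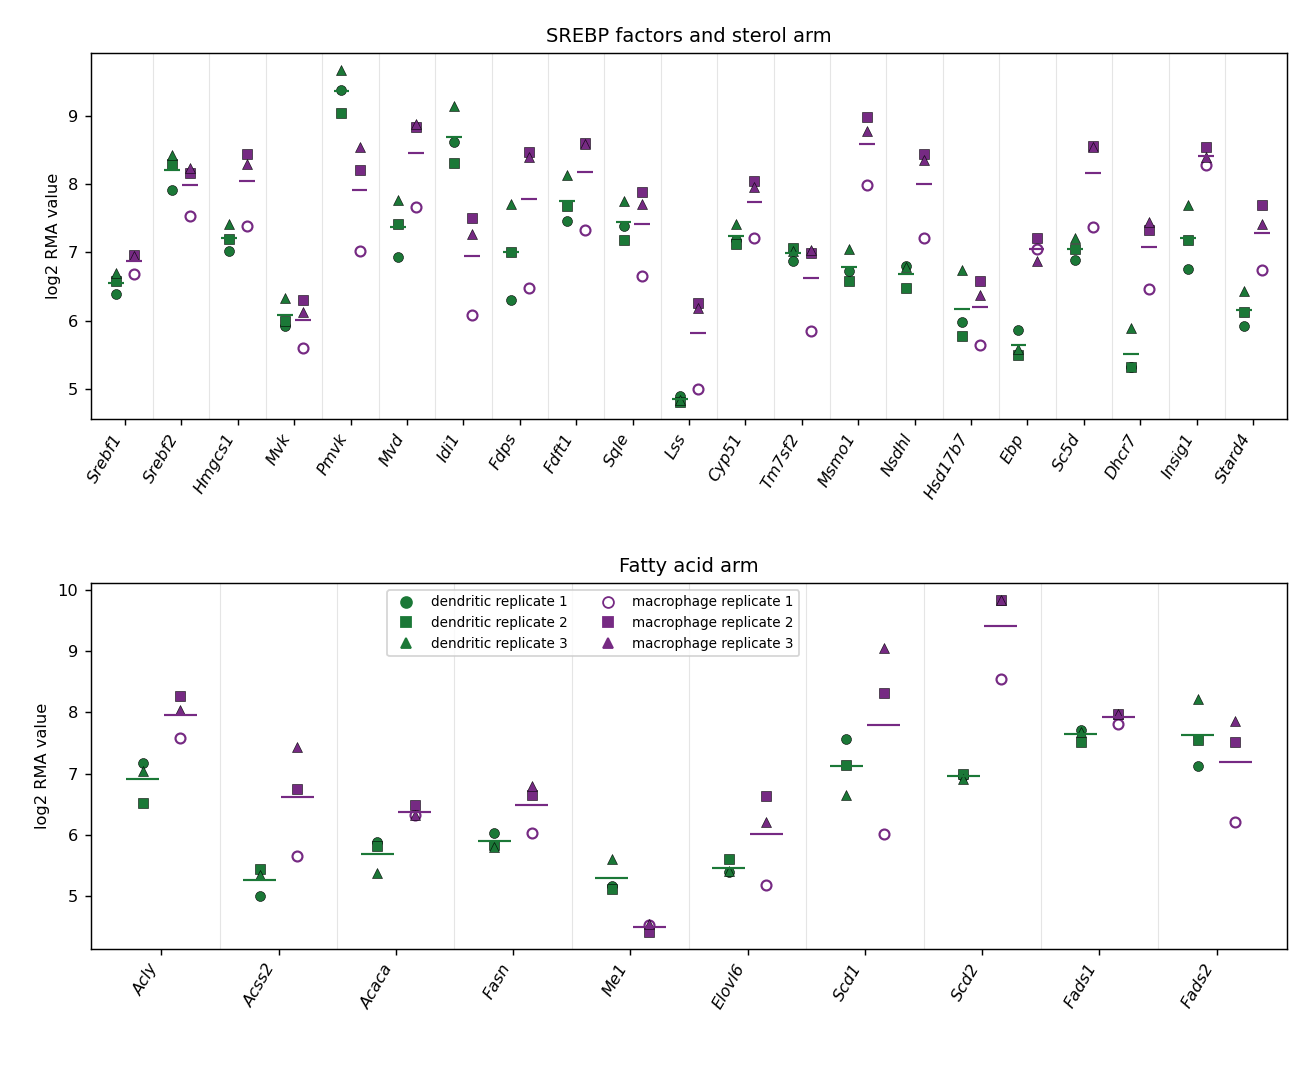
Log2 RMA value (vertical axis) of each member on each array, in pathway order, with dendritic arrays in green at the left and macrophage arrays in purple at the right of each gene; bars are the means of 3 arrays and the open circle is macrophage replicate 1. In the sterol arm the open circle lies under both other macrophage arrays for 18 of 19 genes, Ebp being the exception.

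To show what the members share in sequence, the 250 bases before the RefSeq transcription starts (GRCm38.p6) were searched on both strands. Promoters were found for 25 of the 32 listed genes, and a gene with several starts counted if any of its windows held the motif. The CCAAT box (CCAAT), the binding motif of the factor NF-Y that assists SREBPs at sterol genes, was present in 20 of these 25 (80.0%), against 38.8% of 15614 genes on the array with a promoter and 37.5% of all 27025 genes. The arms were unlike in this. In the sterol arm only Acat2 lacked it among genes with a promoter. In the fatty acid arm Acss2, Fasn and Me1 held it, while Acly, Acaca, Elovl6 and Fads2 did not. The GC box (GGGCGG), bound by Sp1, was present in 21 of 25, against 49.3% and 35.4%. The E-box (CACGTG) was present in 4 of 25, against 8.11% and 6.86%. The sterol regulatory element written as TCACNCCAC was found only in Hmgcs1 among the 25, against 1.2% and 1.22%. These are matches of letters and not sites, and a missing match says only that these letters are not in the window.

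The 4 promoters below were picked after the values were seen: Hmgcs1 for its match to the sterol regulatory element, Idi1 and Msmo1 as the sterol genes with the largest differences upward and downward, and Nsdhl as the enzyme that acts after Msmo1. Each stretch is the 200 bases before the start, 5′ to 3′ on the gene's strand, with CCAAT boxes on either strand (CCAAT or ATTGG) and the sterol regulatory element in capitals. They lie at chr13:119690151-119690350 (plus strand) for Hmgcs1, chr13:8885406-8885605 (plus) for Idi1, chr8:64733579-64733778 (minus) for Msmo1 and chrX:72918321-72918520 (plus) for Nsdhl.
Hmgcs1: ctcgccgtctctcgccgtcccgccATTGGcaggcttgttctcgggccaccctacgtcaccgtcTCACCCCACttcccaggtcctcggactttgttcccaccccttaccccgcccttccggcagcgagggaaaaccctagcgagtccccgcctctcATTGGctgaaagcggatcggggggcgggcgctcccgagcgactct
Idi1: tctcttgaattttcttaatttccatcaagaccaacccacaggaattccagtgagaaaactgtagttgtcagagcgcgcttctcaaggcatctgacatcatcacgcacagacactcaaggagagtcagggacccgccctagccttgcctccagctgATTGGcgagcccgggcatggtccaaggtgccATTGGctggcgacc
Msmo1: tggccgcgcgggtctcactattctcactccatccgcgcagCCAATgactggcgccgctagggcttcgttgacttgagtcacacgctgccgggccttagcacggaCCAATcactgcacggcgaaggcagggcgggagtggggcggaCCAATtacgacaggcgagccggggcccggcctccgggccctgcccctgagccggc
Nsdhl: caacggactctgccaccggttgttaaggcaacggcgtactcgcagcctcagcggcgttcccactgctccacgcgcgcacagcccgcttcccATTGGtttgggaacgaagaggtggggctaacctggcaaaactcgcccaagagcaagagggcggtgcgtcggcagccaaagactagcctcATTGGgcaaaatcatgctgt
All 4 hold CCAAT boxes, 3 in Msmo1 and 2 in each of the others, although Idi1 was called higher in the dendritic population, and Msmo1 and Nsdhl lower.

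The factors themselves differed little. Srebf2 (probe set 10425695) read 7.91, 8.29 and 8.43 in dendritic against 7.54, 8.16 and 8.23 in macrophage arrays, a difference of 0.23 ± 0.21 (limma adjusted p = 0.575; 95% interval -0.25 to 0.72). Srebf1 (probe set 10386473) read 6.39, 6.58 and 6.70 in dendritic against 6.69, 6.96 and 6.95 in macrophage arrays, a difference of -0.31 ± 0.14 (limma adjusted p = 0.178; 95% interval -0.63 to 0.01). The populations overlapped for both, and replicate 1 was the lowest array of its population for both. Between arrays of the same number, Srebf2 read higher and Srebf1 lower in the dendritic array every time, and with replicate number as a block neither was called (limma adjusted p = 0.205 and 0.0803). A gene-level probe set does not separate the Srebf1 isoforms, and RNA levels do not show how much of either protein is cut.

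Insig1, which retains the SREBP complex in the endoplasmic reticulum and is itself an SREBP target, was lower in the dendritic population. It read 6.75, 7.19 and 7.70 in dendritic against 8.28, 8.54 and 8.39 in macrophage arrays (probe set 10520362; -1.19 ± 0.22, limma adjusted p = 0.00408). Every dendritic array lay under every macrophage array, and the call held in all 16 alternatives. Of the members, Insig1 and Ebp were the sterol genes on which macrophage replicate 1 lay closest to its fellow macrophage arrays, at -0.19 and 0.01 from their mean.

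The mevalonate steps, which build isoprenoid units from acetyl-CoA, went both ways. Idi1, the isomerase of isopentenyl diphosphate, read 8.61, 8.31 and 9.14 in dendritic against 6.08, 7.5 and 7.26 in macrophage arrays (probe set 10482762). It was higher by 1.74 ± 0.36, or 3.34-fold (limma adjusted p = 0.0069), and was called in all 16 alternatives. Its other probe set gave the same difference, 1.74 ± 0.38 when all probe sets were fitted. Pmvk, phosphomevalonate kinase, read 9.37, 9.03 and 9.67 in dendritic against 7.02, 8.2 and 8.54 in macrophage arrays (probe set 10493548). It was higher by 1.44 ± 0.35 (limma adjusted p = 0.0167), a call lost without dendritic replicate 3 (adjusted p = 0.0653) and when all probe sets were tested (0.0569). For both genes the lowest dendritic array lay above the highest macrophage array, and macrophage replicate 1 was the lowest of all arrays. Without it the differences were smaller, 1.31 for Idi1 and 0.99 for Pmvk, and both were called.

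Mvd, the decarboxylase that makes isopentenyl diphosphate, ran the other way. It read 6.94, 7.41 and 7.77 in dendritic against 7.66, 8.83 and 8.88 in macrophage arrays, so dendritic replicate 3 lay above macrophage replicate 1. The difference was -1.08 ± 0.33 (limma adjusted p = 0.0473), and the call was lost in 8 of 16 alternatives, among them those that dropped dendritic replicate 1 (0.122) or 2 (0.117) and macrophage replicate 2 (0.158) or 3 (0.163). Hmgcs1, the synthase that opens the pathway, read 7.02, 7.20 and 7.41 in dendritic against 7.39, 8.44 and 8.30 in macrophage arrays. Its difference of -0.83 ± 0.26 fell just short (limma adjusted p = 0.0504) and was called when replicate number entered as a block (0.00951) and when macrophage replicate 1 was dropped (-1.16, adjusted p = 0.00104). Mevalonate kinase, Mvk, differed by 0.08 ± 0.20 (limma adjusted p = 0.883; 95% interval -0.37 to 0.53).

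Fdps, farnesyl diphosphate synthase, had the widest spread of the sterol arm. It read 6.31, 7.01 and 7.70 in dendritic against 6.49, 8.46 and 8.40 in macrophage arrays, so that macrophage replicate 1 lay among the dendritic arrays. The difference was -0.77 ± 0.53 (limma adjusted p = 0.413), against -1.42 ± 0.33 without macrophage replicate 1 (adjusted p = 0.0158). It was also called when replicate number entered as a block (adjusted p = 0.0402). Replicate 1 was the lowest array in both populations.

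From squalene to lanosterol the values were mixed. Squalene synthase, Fdft1, differed by -0.41 ± 0.33 and squalene epoxidase, Sqle, by 0.02 ± 0.30, neither called (limma adjusted p = 0.512 and 0.984). Without macrophage replicate 1 the values were -0.84 for Fdft1, which was then called (adjusted p = 0.0184), and -0.36 for Sqle, which was not (0.28). Lanosterol synthase, Lss, read 4.91, 4.81 and 4.84 in dendritic against 5.0, 6.26 and 6.19 in macrophage arrays. The dendritic values lay within the range of the array medians of all probe sets (4.79 to 4.96), and macrophage replicate 1 just above it. The Lss probe set was thus dim on these arrays. Its populations did not overlap, but macrophage replicate 1 lay close above the dendritic arrays and far under its fellow macrophage arrays. Lss was called at -0.97 ± 0.30 (limma adjusted p = 0.0487), and this was lost in 7 of 16 alternatives, in every leave-one-out setting but that of macrophage replicate 1 (adjusted p of 0.0801 to 0.167) among them. The lanosterol demethylase Cyp51 differed by -0.50 ± 0.22 (adjusted p = 0.165), and was called at -0.76 without macrophage replicate 1 (0.00723).

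Msmo1 and Nsdhl, whose products act in turn to strip methyl groups from the sterol ring, were both lower. Msmo1 (probe set 10578916) read 6.73, 6.58 and 7.04 in dendritic against 7.99, 8.97 and 8.77 in macrophage arrays, 3.46-fold lower in the dendritic population (-1.79 ± 0.25, limma adjusted p = 0.000772). Nsdhl (probe set 10600082) read 6.80, 6.48 and 6.79 in dendritic against 7.21, 8.44 and 8.35 in macrophage arrays, a difference of -1.31 ± 0.30 (limma adjusted p = 0.012). Neither overlapped between the populations. Msmo1 was called in all 16 alternatives, and Nsdhl in all but those without dendritic replicate 2 (adjusted p = 0.0545) and without macrophage replicate 3 (0.0505). The ketosteroid reductase Hsd17b7, which works beside them, differed by -0.04 ± 0.30 (adjusted p = 0.964), and the sterol reductase Tm7sf2 by 0.36 ± 0.29 (0.501).

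The last steps to cholesterol were lower in the dendritic population. Ebp, the sterol isomerase, read 5.86, 5.51 and 5.59 in dendritic against 7.05, 7.20 and 6.88 in macrophage arrays (probe set 10603485; -1.39 ± 0.15, limma adjusted p = 0.000148). Dhcr7, the reductase that completes cholesterol, read 5.33, 5.33 and 5.90 in dendritic against 6.47, 7.33 and 7.44 in macrophage arrays (probe set 10559312; -1.56 ± 0.27, limma adjusted p = 0.00267). Both were called in all 16 alternatives, and no dendritic array reached a macrophage array. The desaturase Sc5d, which acts between them, read 6.89, 7.05 and 7.21 in dendritic against 7.37, 8.55 and 8.54 in macrophage arrays. Its difference was -1.10 ± 0.29 (limma adjusted p = 0.0253), and the call was lost in every leave-one-out setting but that of macrophage replicate 1 (adjusted p of 0.0503 to 0.0963).

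Stard4, a carrier that moves sterol between membranes, followed the enzymes. It read 5.93, 6.13 and 6.44 in dendritic against 6.74, 7.69 and 7.41 in macrophage arrays (probe set 10458033; -1.12 ± 0.24, limma adjusted p = 0.00947) and was called in all 16 alternatives.

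**Figure D2:**
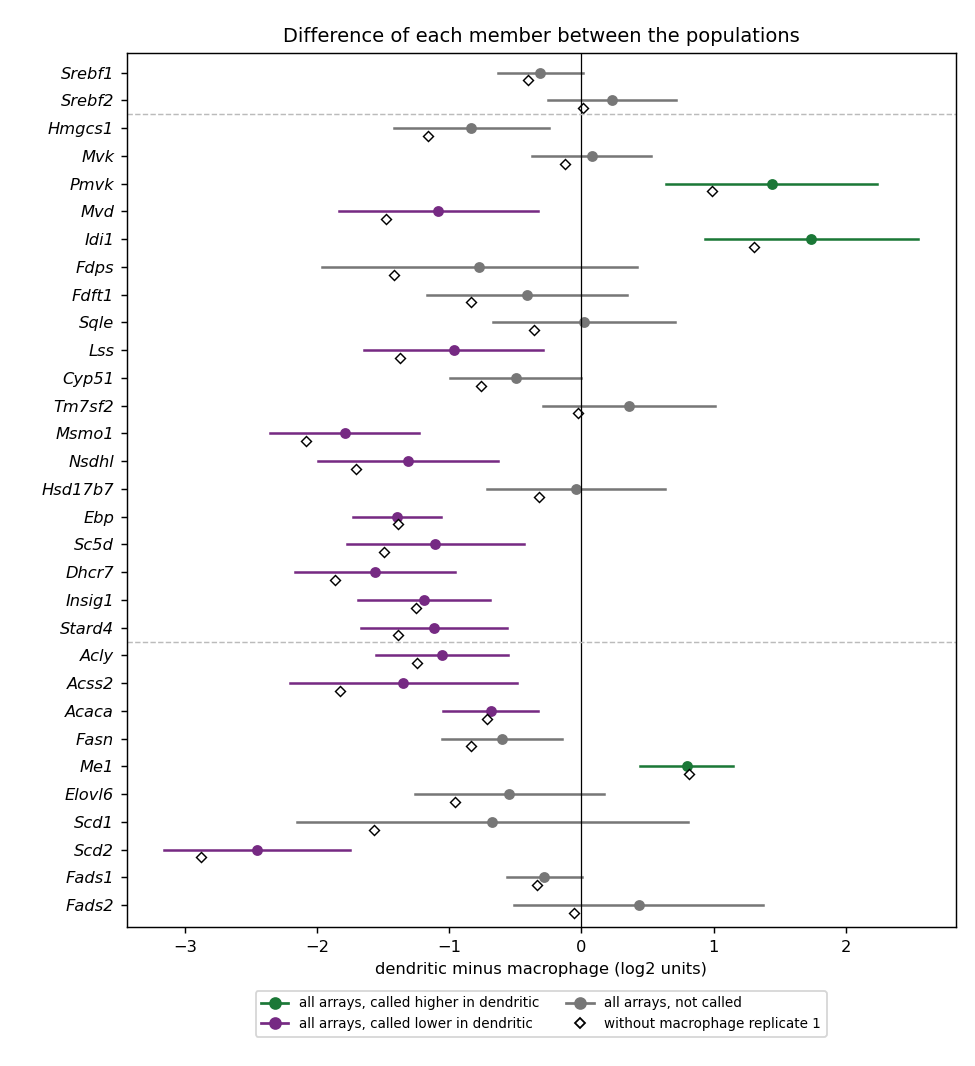
Difference of each member, dendritic minus macrophage in log2 units (horizontal axis), as a dot with its 95% interval from limma on 3 arrays against 3, coloured by call, and as an open diamond without macrophage replicate 1; dashed lines part the factors, the sterol arm and the fatty acid arm. Diamonds lie left of the dots for all members but Ebp and Me1, also for Idi1 and Pmvk, which are higher in the dendritic population.

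In the fatty acid arm the RNAs of enzymes that make and carboxylate acetyl-CoA were called lower. Acly, which splits citrate into acetyl-CoA, read 7.17, 6.52 and 7.03 in dendritic against 7.58, 8.27 and 8.03 in macrophage arrays (probe set 10391146; -1.05 ± 0.22, limma adjusted p = 0.00772), with no overlap and a call in all 16 alternatives. Acss2, which makes acetyl-CoA from acetate, read 5.0, 5.44 and 5.35 in dendritic against 5.65, 6.74 and 7.44 in macrophage arrays. Its difference was -1.35 ± 0.38 (limma adjusted p = 0.0323), and the call was lost in every leave-one-out setting but that of macrophage replicate 1 (adjusted p of 0.0735 to 0.0909). Acaca, acetyl-CoA carboxylase, read 5.88, 5.81 and 5.38 in dendritic against 6.33, 6.48 and 6.33 in macrophage arrays (-0.69 ± 0.16, limma adjusted p = 0.0128). Its other probe set gave -0.65 ± 0.13 but was dim, with means of 3.56 in dendritic and 4.21 in macrophage arrays. On the brighter probe set the macrophage arrays lay close together, replicate 1 included, and the call was lost without macrophage replicate 2 (adjusted p = 0.0596).

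Fatty acid synthase, Fasn, read 6.04, 5.83 and 5.80 in dendritic against 6.02, 6.65 and 6.80 in macrophage arrays. Macrophage replicate 1 lay among the dendritic arrays, and the difference of -0.60 ± 0.20 was not called (limma adjusted p = 0.0669). Without that array it was -0.84 and called (adjusted p = 0.00405). Me1, the malic enzyme that supplies NADPH for synthesis, was the only fatty acid gene called higher in the dendritic population. It read 5.16, 5.11 and 5.60 in dendritic against 4.53, 4.41 and 4.54 in macrophage arrays (probe set 10405753; 0.80 ± 0.16, limma adjusted p = 0.00536), and its other probe set gave 0.86 ± 0.19. The macrophage arrays were tight and lay under the lowest array median of all probe sets, 4.79, so this probe set was dim there. Me1 was called in all 15 alternatives that tested it.

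Among the 31 members, the desaturases held the largest difference and also the gene with the widest macrophage spread. Scd2, a stearoyl-CoA desaturase that makes monounsaturated fatty acids, read 6.96, 7.00 and 6.91 in dendritic against 8.55, 9.83 and 9.84 in macrophage arrays (probe set 10463355). It was 5.48-fold lower in the dendritic population (-2.45 ± 0.31, limma adjusted p = 0.00044), and was called in all 16 alternatives. Its paralog Scd1 read 7.57, 7.13 and 6.66 in dendritic against 6.01, 8.32 and 9.06 in macrophage arrays (probe set 10467979). Macrophage replicate 1 was thus the lowest of all 6 arrays and macrophage replicate 3 the highest. The Scd1 difference was -0.67 ± 0.65 (limma adjusted p = 0.603; 95% interval -2.16 to 0.81), and -1.57 ± 0.29 without macrophage replicate 1 (adjusted p = 0.00471). Scd1 and Scd2 are close relatives, and whether a probe set takes signal from the other gene was not tested.

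The elongase Elovl6 followed Scd1, with 5.39, 5.60 and 5.40 in dendritic against 5.18, 6.63 and 6.21 in macrophage arrays. It differed by -0.55 ± 0.31 (limma adjusted p = 0.312) and by -0.96 without macrophage replicate 1 (adjusted p = 0.00404). The desaturases of polyunsaturated fatty acids were not called. Fads1 differed by -0.28 ± 0.12 (adjusted p = 0.168), although its dendritic arrays all lay under its macrophage arrays. Fads2 read 7.12, 7.54 and 8.22 in dendritic against 6.21, 7.51 and 7.86 in macrophage arrays, a difference of 0.43 ± 0.42 (adjusted p = 0.6; 95% interval -0.51 to 1.38) that turned to -0.06 without macrophage replicate 1.

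Macrophage replicate 1 was low across the pathway. It lay under both other macrophage arrays for 28 of 31 members and above both for 0. Among all 19938 genes it lay under both for 46.8% and above both for 6107. It was more than 1 log2 unit under the mean of the other macrophage arrays for 15 of 31 members (10 sterol, 5 fatty acid), against 0.762% of all genes. The median shortfall was -1.14 in the sterol arm and -0.97 in the fatty acid arm, against -0.06 over all genes. Scd1 was the furthest under, at -2.68, followed by Fdps at -1.94 and Fads2 at -1.48. With 1 array against 2 of a population there is no test, so these are descriptions.

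Set against the dendritic arrays, macrophage replicate 1 lay above all of them for 13 of 31 members and below all of them for 12 (38.7%), where 24.7% of all genes lay above and 38% below. Macrophage replicate 2 lay above all dendritic arrays for 23 members and below for 3, against 26.8% and 30.6% of all genes. Macrophage replicate 3 lay above for 22 and below for 3, against 31.4% and 27.3%. The log2 values of the 31 members summed to 206.6, 207.2 and 215.7 in the dendritic arrays, against 207.1, 236.8 and 236.4 in the macrophage arrays. The sum in macrophage replicate 1 therefore lay among the dendritic arrays, while the sums in the other macrophage arrays were apart from every other array. Gene by gene, macrophage replicate 1 lay inside the dendritic range for only 6 of 31 members (19.4%), against 37.2% of all genes. Its sum thus balanced members above and below that range. The dendritic arrays differed less, with dendritic replicate 3 above both others for 15 of 19 sterol genes and for 2 of 10 fatty acid genes (34.0% of all genes).

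**Figure D3:**
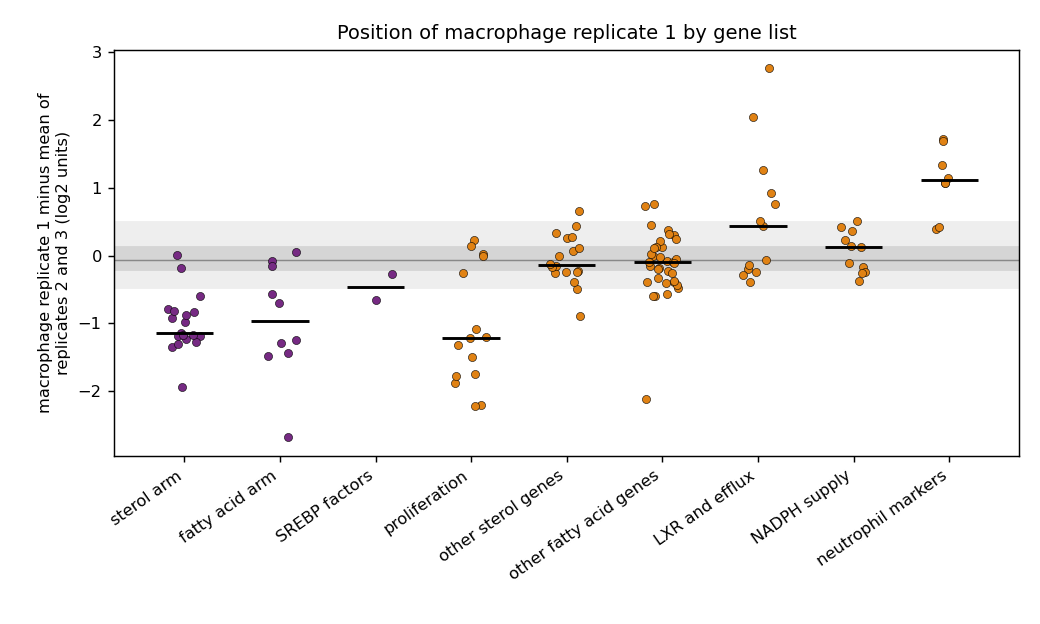
Macrophage replicate 1 minus the mean of macrophage replicates 2 and 3 (vertical axis, log2 units) for each gene, by list; black bars are list medians, the dark and light grey bands hold the middle 50% and 90% of all genes, and the grey line is their median. The medians of the sterol arm, the fatty acid arm and the proliferation list lie under the bands, while single genes such as Ebp, Insig1, Acaca, Me1 and Fads1 lie inside, the neutrophil markers above 0, and the other sterol and fatty acid genes mostly within the light band.

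Other lists moved with that array. Of 15 measured proliferation genes, macrophage replicate 1 lay under both other macrophage arrays for 12, with a median shortfall of -1.22. The mitotic cyclin Ccnb2 read 6.20 in it, against 8.55 and 8.27 in macrophage replicates 2 and 3. All 8 measured neutrophil markers lay above both others, at a median of 1.11. Their log2 values summed to 61.5, 55.7 and 53.1 in dendritic replicates 1, 2 and 3 and to 63.2, 54.1 and 54.7 in macrophage replicates 1, 2 and 3, so replicate 1 was the highest array in both populations. The defining neutrophil gene Ly6g read 4.46, 3.36 and 3.33 in dendritic against 4.57, 3.62 and 3.38 in macrophage arrays, near or under the array medians. The neutrophil markers differed in level, and S100a8 read 10.94, 10.46 and 9.65 in dendritic against 11.28, 9.98 and 10.42 in macrophage arrays. S100a9, Ngp and Camp also lay well above the array medians (4.79 to 4.96) on every array. The 4 measured adipocyte markers (5 listed) differed by -0.25 to 0.23, and their log2 values summed to 15.6 to 16.7 in dendritic and 16.1 to 16.3 in macrophage arrays. Of the 5 osteoclast markers, 3 were called lower, against 11.6% of all genes. The log2 values of the 5 summed to 23.4 to 25.9 in dendritic and 32.6 to 34.0 in macrophage arrays. The part of any of these in the sterol and fatty acid values was not tested.

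**Figure D4:**
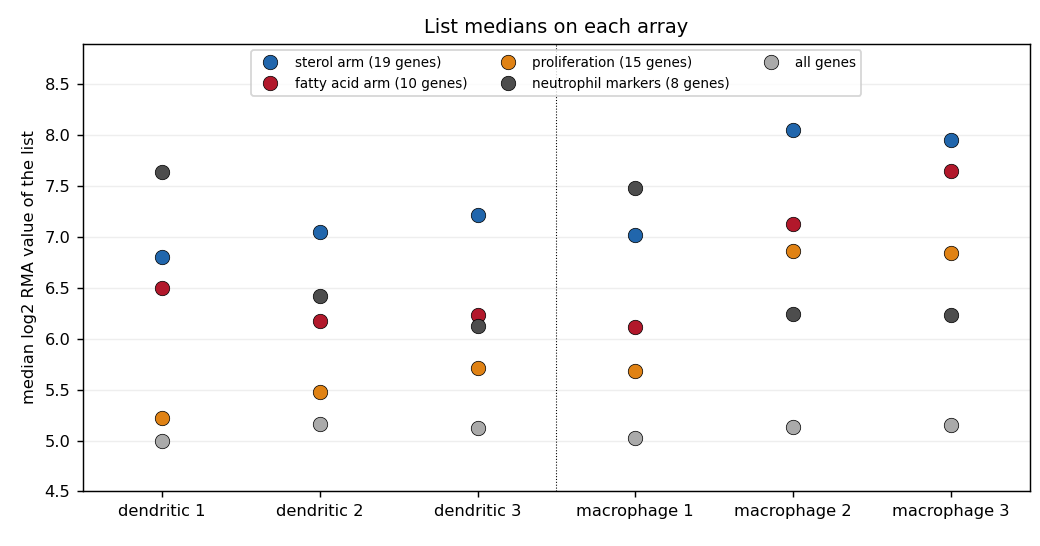
Median log2 RMA value of 5 lists (vertical axis) on each of the 6 arrays, dendritic at the left and macrophage at the right. The sterol arm reads 7.02 in macrophage replicate 1 against 8.05 and 7.95 in replicates 2 and 3, while the median of all genes stays between 4.99 and 5.16.

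Genes that process SREBPs went both ways. Of 9 measured (12 listed) 2 were called higher and 2 lower, with a median difference of -0.01. Among all genes 9.98% were called higher and 11.6% lower. Insig2, the relative of Insig1, read 6.50, 6.13 and 6.33 in dendritic against 7.28, 7.44 and 7.51 in macrophage arrays (-1.09 ± 0.14, limma adjusted p = 0.000512), so both Insig genes were lower. Erlin1, a membrane protein that takes part in sterol-dependent protein turnover, was higher by 1.85 ± 0.27 (adjusted p = 0.00112). The protease Mbtps1 was higher by 0.76 ± 0.19 (adjusted p = 0.0210), a call lost without macrophage replicate 2 (0.0623) or macrophage replicate 3 (0.0782). The ubiquitin ligase Rnf139 was lower by a difference of -0.47 ± 0.14 (adjusted p = 0.0436) and kept this call only without dendritic replicate 2, of the settings that left out 1 array (0.0846 to 0.13 in the others). Scap differed by -0.28 ± 0.12 (adjusted p = 0.136).

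Other genes of sterol synthesis, uptake and esterification were called lower in 6 of 18 measured cases (24 listed), against 11.6% of all genes. The median was -0.27, with differences of -3.39 to 0.30. Among the lower genes were the lysosomal lipase Lipa (-3.39 ± 0.25, limma adjusted p = 1.67e-05), the lysosomal cholesterol exporter Npc1 (-1.93 ± 0.14, adjusted p = 1.48e-05) and the lipoprotein receptor Scarb1 (-1.93 ± 0.27, adjusted p = 0.000755). These genes, with the largest differences of the list, handle cholesterol taken up by the cell. Npc2, another lysosomal cholesterol gene of the list, differed by 0.02 ± 0.13 (limma adjusted p = 0.963). The other genes called lower were Osbp (-1.28), Nus1 (-1.26) and Tmem97 (-1.09). Macrophage replicate 1 lay under both other macrophage arrays for 10 of these 18 genes and above both for 7, with Scarb1 at -0.90 and Lipa at 0.65 from their mean. Over all 19938 genes it lay under both for 46.8% and above both for 6107.

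LXR targets and genes of sterol efflux were called lower in 6 of 13 measured cases (14 listed) and higher in 1, with a median of -0.58. The shares of all genes were 11.6% lower and 9.98% higher. Apoe, the lipoprotein that carries exported cholesterol, read 6.37, 6.55 and 6.78 in dendritic against 12.45, 9.31 and 10.05 in macrophage arrays (-4.04 ± 0.65, limma adjusted p = 0.00187). The cholesterol exporter Abca1 read 6.89, 5.61 and 4.58 in dendritic against 8.86, 7.78 and 7.42 in macrophage arrays (-2.33 ± 0.55, adjusted p = 0.0140; 0.0547 without dendritic replicate 2). The phospholipid transfer protein Pltp differed by -4.16 ± 0.49 (adjusted p = 0.000307). For these 3 genes macrophage replicate 1 was the highest array. Over the 13 genes it lay above both other macrophage arrays for 7 and below both for 4, against 6107 and 9338 of all 19938 genes. The ubiquitin ligase Mylip, an LXR target, was higher by 1.06 ± 0.26 (adjusted p = 0.0180; 0.0504 to 0.0682 when dendritic replicate 1 or 3, or macrophage replicate 2 or 3, was dropped). The LXR gene Nr1h3 differed by -0.45 ± 0.20 (adjusted p = 0.169).

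Of the other genes of fatty acid synthesis, elongation and activation, 7 of 35 measured (37 listed) were called lower and 1 higher, with a median of -0.07. All genes gave 11.6% lower and 9.98% higher. Blocking on replicate number gave 9 lower and 3 higher, against 13.9% and 12.2% of all genes. The elongation cycle enzymes Hacd4 (-4.33 ± 0.22, limma adjusted p = 1.91e-06) and Hsd17b12 (-1.57 ± 0.13, adjusted p = 3.88e-05) and the acyltransferase Agpat3 (-1.37 ± 0.13, adjusted p = 7.74e-05) had the largest differences among the called genes. The phosphatase Lpin2 was higher by 0.78 ± 0.20 (adjusted p = 0.0236), a call lost when replicate 2 or 3 of either population was dropped (0.0681 to 0.0896). The mitochondrial carboxylase Acacb differed by 0.08 ± 0.15 (adjusted p = 0.824). The elongase Elovl7, named after its values were seen, read 4.52, 4.8 and 4.84 in dendritic against 4.84, 6.92 and 7.01 in macrophage arrays (-1.53 ± 0.49, limma adjusted p = 0.0573; 1.81e-05 without macrophage replicate 1).

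Genes that supply NADPH, the reductant both arms consume, were called lower in 6 of 11 measured cases (12 listed) and higher in 1. Their median was -0.84, and 11.6% of all genes were called lower and 9.98% higher. Pgd, of the oxidative pentose phosphate pathway, read 8.35, 7.64 and 7.73 in dendritic against 10.65, 10.45 and 10.59 in macrophage arrays (-2.66 ± 0.19, limma adjusted p = 1.56e-05). Taldo1 of its non-oxidative branch (-1.34 ± 0.15, adjusted p = 0.000226) and the NAD kinase Nadk (-1.33 ± 0.19, adjusted p = 0.000854) were also lower. The lactonase Pgls was higher by 0.54 ± 0.14 (adjusted p = 0.0194), a call lost when dendritic replicate 2 or 3, or macrophage replicate 1 or 2, was dropped (0.0628 to 0.0799). Me1 and Pgls were thus the NADPH genes called higher in the dendritic population. Macrophage replicate 1 lay under both other macrophage arrays for 4 of these 11 genes, against 28 of the 31 members.

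Proliferation genes split between the populations. Of 15 measured (16 listed) 5 were called lower and 2 higher, with a median of -1.06. The counts were 8 lower and 4 higher when replicate number entered as a block, and 10 lower and 2 higher without macrophage replicate 1. The shares of all genes were 11.6% lower and 9.98% higher, 13.9% and 12.2% with the block, and 11% and 9.15% without that array. The cell cycle marker Mki67 (-2.15 ± 0.32, limma adjusted p = 0.00122), Ccnb2 (-2.22 ± 0.52, adjusted p = 0.0143) and the cyclin Ccna2 (-1.71 ± 0.51, adjusted p = 0.0438) were lower. The call of Ccnb2 was lost without dendritic replicate 2 (0.0626) or macrophage replicate 3 (0.0585), and that of Ccna2 in every leave-one-out setting but that of macrophage replicate 1 (0.0933 to 0.147). The nucleotide synthesis genes Tk1 (1.39 ± 0.20, adjusted p = 0.000999) and Tyms (1.2 ± 0.18, adjusted p = 0.00109) were higher.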

How the data were processed

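The authors deposited log2 values of 35556 probe sets, and the submitters' processing notes name RMA and R 3.0.2 for them. The sources used here do not give the arrays RMA was run on, the probe set definition, a filter or a genome build, and the table has no detection calls. RMA compresses differences of dim probe sets, and the number of arrays limits the precision.

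Probe sets with 1 gene symbol in the platform table (21789 of 35556; 1621 had several and 12146 were unlisted) were kept, with symbols checked by Entrez identifier against RefSeq (GRCm38.p6), and the brightest probe set per gene was used. Symbols of promoters were matched to the same release. The fit was limma 3.58.1 (lmFit, eBayes, 2-sided) in R 4.3.3 with population as the only term, tested on simulated data. Tables and figures used Python 3.11.15, pandas 2.3.3 and matplotlib 3.10.9.

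The members, lists and tests were chosen with earlier results of these data known. Named genes are all measured members, for each other list up to 3 called genes in each direction with the largest difference, and a few pathway genes whatever their value, some of which are not reported here. The alternatives were a replicate block, leaving out each array or replicate 1 of both populations, repeated quantile normalization, 75th percentile centring, filters on level, the mean of probe sets, all probe sets, trend with robust eBayes, and array weights.

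To see whether numbers pair the samples, each array's deviation from the mean of its population was correlated across genes with that of the array of the same number, at 0.385, 0.147 and 0.272 for replicates 1, 2 and 3, all over 0.1, and by this the title numbers were taken to pair the samples. This rests mostly on number 1: dendritic replicate 2 with macrophage replicate 3 gave 0.155 and dendritic replicate 3 with macrophage replicate 2 gave 0.128, also over 0.1. Over the members alone the same-numbered arrays gave 0.082, -0.059 and -0.080. A correlation across members takes out a shift that they share, so these low values do not show that the block has no use. What a number marks is not stated in the labels, so the main fit left the pairing out. The replicate block is the alternative that used it. With it the SE was lower for every member but Acly (0.22 without and 0.23 with the block), and for Fdps it was 0.53 without and 0.22 with the block.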

Additional observations from a re-analysis of the deposited data

How the results depend on the processing

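With 16 alternatives, every sterol and fatty acid median stayed negative, and 423 of 495 results of single members kept direction and call. Outside the settings that left out 1 array, some counts moved by over 1.5 times. Sterol genes called higher fell to 1, against 2, when all probe sets were tested. Fatty acid genes called higher fell to 0, against 1, when genes under the median were left out, which removed Me1 from the test. Fatty acid genes called lower rose to 7, against 4, with array weights and without replicate 1 of both populations. Leaving out 1 array also moved some counts this far. Sterol genes called lower fell to 5, against 9, without dendritic replicate 2 or macrophage replicate 3. Sterol genes called higher and fatty acid genes called lower moved this far in other such settings. When 1 array was left out, the ranges were 1 to 2 sterol genes higher, 5 to 13 lower, 1 fatty acid gene higher and 2 to 7 lower, with medians of -1.25 to -0.63 (sterol) and -0.90 to -0.45 (fatty acid). All genes called lower numbered 1824 to 2507 and higher 1487 to 2118 in those settings. The replicate block changed the calls of Hmgcs1 and Fdps and of no other member. Directions turned for genes that were not called: Mvk (-0.044 without replicate 1 of both, -0.031 with array weights, -0.12 to 0.22 when 1 array was left out), Sqle (-0.33, -0.23, and -0.36 to 0.25), Tm7sf2 (-0.026 to 0.57 when 1 array was left out), Fads2 (-0.059 to 0.77) and Hsd17b7 (-0.33 to 0.15, and 0.013 with 75th percentile centring). The causes were not tested. With 3 arrays a population, differences near the spread of macrophage replicate 1 are poorly resolved.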
